A study of Mus musculus with 12 samples.

Results

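Myofibroblast contractile genes and 2 membrane proteins of activated fibroblasts were followed in cultured mouse muscle fibroblasts given aldosterone, spironolactone or vehicle. The genes were *Acta2*, *Tagln*, *Cnn1*, *Myl9*, *Tpm1*, *Tpm2*, *Actg2*, *Lmod1*, *Fap* and *Lrrc15*, taken by symbol, and all 10 were found among the 28995 genes of the 3 tables. The fibroblasts came from hindlimb muscle of 2 wild-type C57 BL/10 mice at 3 days after birth, were selected by adherence to plastic, and were kept in charcoal-stripped serum before and during treatment. They received 1 µM aldosterone, a mineralocorticoid receptor (MR) agonist, 1 µM spironolactone, an MR antagonist, or the DMSO vehicle for 48 hours. Poly(A) RNA was sequenced from 4 libraries per treatment, 12 in all. Each library is named here by its treatment (A, S or V), a sample number (1 or 2) and a replicate number (1 or 2), so that A1_2 is the second aldosterone library of sample number 1. The labels give 2 mice and 2 plates per mouse and treatment without saying which number is the mouse. The p-values therefore rest on plates of at most 2 animals and not on a wider sample of mice.

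Myofibroblasts are fibroblasts that build smooth muscle-type stress fibers and pull on the surrounding matrix, and they appear in wounds and in fibrosis. Their actin filaments are decorated with tropomyosins and calponin and are pulled by myosin, whose regulatory light chain is phosphorylated to start contraction. Serum response factor (SRF) and its coactivators of the myocardin family drive many of these genes through CArG boxes, and TGF-β is the best known inducer of the state. *Fap*, a membrane serine protease, and *Lrrc15*, a leucine-rich repeat membrane protein, are used as surface markers of activated fibroblasts and of TGF-β-induced myofibroblasts. MR is a steroid receptor that binds DNA as a hormone-activated transcription factor, and the hexamer TGTTCT is shared by the sites of steroid receptors of its class.

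The promoter windows of the most abundant contractile gene, of the gene whose window held a complete CArG box, and of *Lrrc15*, whose difference between treatments was the largest among the members, are shown first. Each runs from 250 bases before to 50 bases after the gene's start in RefSeq on build GRCm38.p6, on the gene's own strand, and 7 of the 10 members matched this table. Capitals mark the matches on either strand to a relaxed CArG box, which allows at most 1 strong base inside its weak core, to the steroid receptor hexamer named above and to CATTCC, the binding site of TEAD factors.
Acta2, chr19:34255324-34255623, minus strand: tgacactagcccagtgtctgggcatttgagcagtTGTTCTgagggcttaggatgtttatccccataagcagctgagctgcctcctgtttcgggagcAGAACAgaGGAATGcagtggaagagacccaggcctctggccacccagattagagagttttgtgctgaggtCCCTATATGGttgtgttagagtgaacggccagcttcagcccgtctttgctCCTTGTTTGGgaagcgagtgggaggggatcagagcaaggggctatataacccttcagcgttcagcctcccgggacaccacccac
Myl9, chr2:156775214-156775513, plus strand: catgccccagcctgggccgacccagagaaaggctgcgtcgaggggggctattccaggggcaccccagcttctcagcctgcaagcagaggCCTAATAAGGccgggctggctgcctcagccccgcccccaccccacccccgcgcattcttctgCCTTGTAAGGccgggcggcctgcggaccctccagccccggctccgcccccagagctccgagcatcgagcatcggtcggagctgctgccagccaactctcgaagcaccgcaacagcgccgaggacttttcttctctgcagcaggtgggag
Lrrc15, chr16:30283205-30283504, minus strand: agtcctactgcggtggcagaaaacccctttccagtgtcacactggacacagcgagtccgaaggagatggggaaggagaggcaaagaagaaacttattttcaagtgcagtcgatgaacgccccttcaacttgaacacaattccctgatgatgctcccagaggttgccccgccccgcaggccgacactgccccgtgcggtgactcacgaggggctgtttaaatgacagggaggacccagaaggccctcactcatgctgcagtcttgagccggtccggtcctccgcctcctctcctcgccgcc
The *Acta2* window held 2 relaxed CArG boxes, starting at -84 and -34 from the gene's start. It also held 2 copies of the steroid receptor hexamer, at -216 and -154, and 1 TEAD site, at -146. The *Myl9* window held 2 relaxed CArG boxes, at -161 and -99, of which the one at -161 was complete, with a core of weak bases alone. The windows of *Tpm1* and *Lmod1* each held 1 TEAD site, at -56 and -130. Those of *Cnn1*, *Tpm2* and *Lrrc15* held none of these motifs, which says nothing of the factors themselves. Of 32851 promoter windows in the table, 1.63% held a complete CArG box, 9.98% a relaxed one, 19% the hexamer and 14.7% the TEAD site.

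Reads on genes ranged from 19136923 to 30219185 per library. Known steroid receptor targets responded in the aldosterone libraries, among them *Fkbp5*, a co-chaperone of steroid receptors, at 6330 ± 473 normalized counts against 330 ± 38.7 with vehicle (SD, n = 4 each). The fibroblast markers summed to at least 30931 CPM (reads scaled by library size) in every library, led by *Col1a1* and *Col1a2*. *Pax7*, *Myod1* and *Ckm*, which mark satellite cells, myoblasts and muscle fibers, had at most 3, 7 and 2 reads in any library, and *Ptprc*, the pan-leukocyte marker, had at most 2. Other markers on the same lists had more. The skeletal muscle genes *Acta1*, *Tnnt3* and *Myh3* reached 892, 48 and 25 reads, and the immune genes *Lyz2* and *Csf1r* reached 240 and 79. The smooth muscle and pericyte markers were present at a low level, with 344 to 528 CPM in the aldosterone libraries, 451 to 604 with vehicle and 454 to 622 with spironolactone. Most of this sum was *Cspg4*, at 252 to 431 CPM over the libraries. Of the pericyte genes, *Higd1b* had at most 2 reads, whereas *Rgs5* and *Abcc9* reached 339 and 151. In such bulk RNA, fewer cells of a type and less RNA per cell cannot be told apart.

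Levels of the members covered more than 3 orders of magnitude. Given per gene length, as RPKM (reads scaled by gene length and library size), *Acta2* (smooth muscle α-actin, the classical myofibroblast marker) stood at 1226 ± 230 with vehicle (SD, n = 4) and ranked 14 among all 28995 genes. *Myl9*, the regulatory light chain of smooth muscle myosin, followed at 285 ± 43.3. The tropomyosins, coiled-coil proteins that lie along the actin filament, came next, with *Tpm1* at 172 ± 3.15 and *Tpm2* at 139 ± 18.9. *Actg2*, the smooth muscle γ-actin, at 68.1 ± 23.9, and *Cnn1*, calponin 1, which binds actin and restrains myosin, at 58.7 ± 16.3, overlapped in their libraries. *Lmod1*, an actin filament nucleator of smooth muscle, was at 13.5 ± 1.21 and *Tagln*, the actin-binding protein transgelin, at 4.44 ± 0.54. The fibroblast surface markers were barely expressed, at 0.617 ± 0.061 for *Lrrc15* and 0.238 ± 0.087 for *Fap*. These last levels rested on 29 to 98 and 19 to 52 reads per library, so counting error limited their precision.

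The order of the members was the same in the spironolactone libraries. With aldosterone the tropomyosins drew level, at 122 ± 5.11 for *Tpm1* and 123 ± 21.1 for *Tpm2* on the RPKM scale. Of the summed RPKM of 6 actins, *Acta2* made up 38.5 ± 2.16% with vehicle, 34.6 ± 2.63% with aldosterone and 39.2 ± 2.76% with spironolactone. The cytoplasmic actin *Actb* made up 30.4 ± 1.71%, 33.3 ± 1.76% and 30.4 ± 1.79%. The actins are close in sequence, and whether some of their reads were assigned to the wrong actin was not tested. A large part of *Tagln* is covered by other genes on the opposite strand, the lncRNA *Gm48529* inside it and the end of *Pcsk7*, and whether reads were counted by strand is not given in the sources used here. Its level and differences are therefore uncertain. Genes on the opposite strand also overlap *Tpm1* (2 genes) and *Lmod1* (*U6*), and their part in the counts was not tested.

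**Figure D1:**
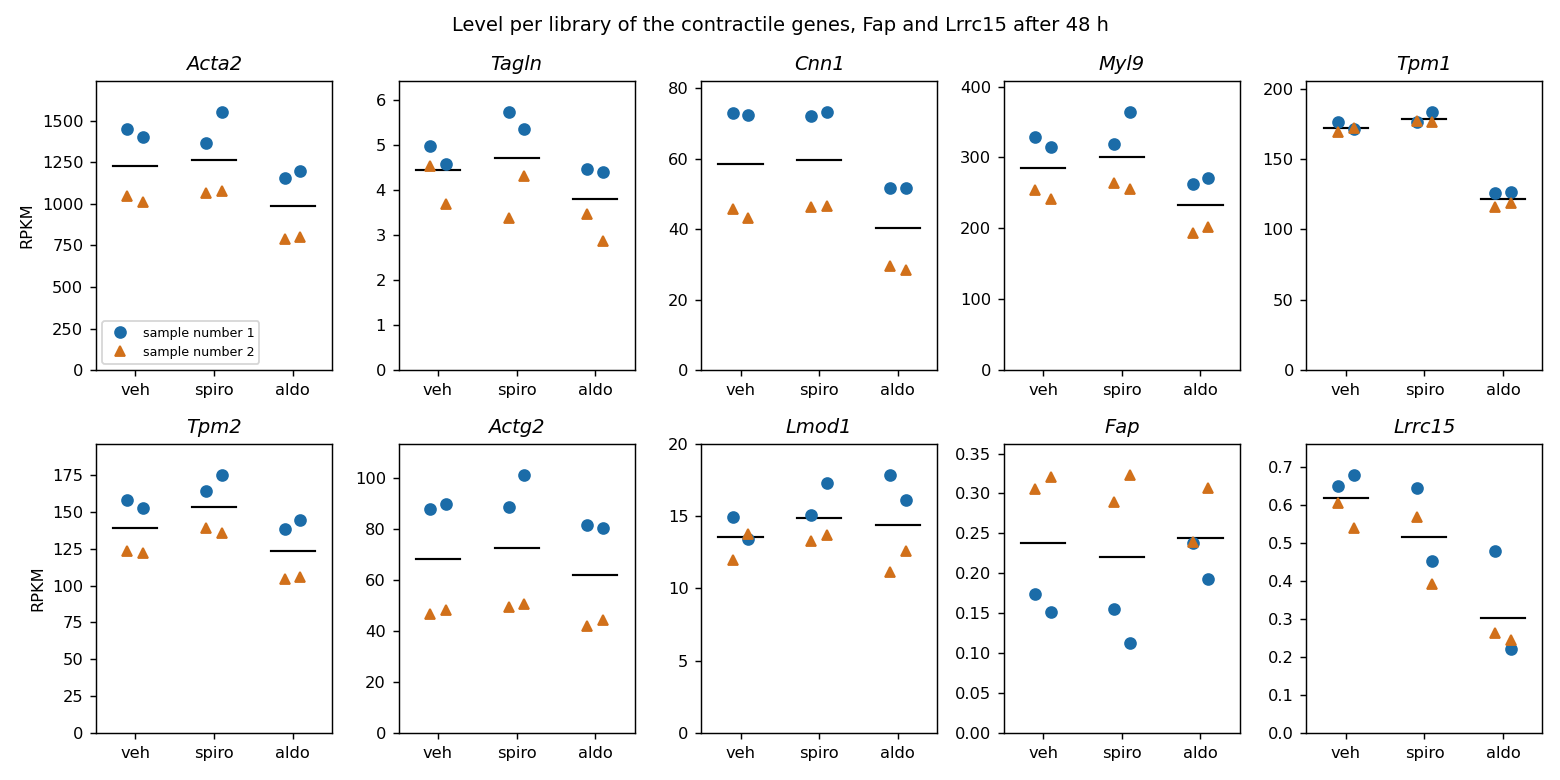
Level of each member (RPKM, linear axis from 0) in the 12 libraries, by treatment (veh, vehicle; spiro, spironolactone; aldo, aldosterone), with bars at the mean of 4 libraries and symbols for the sample number. *Tpm1* lies at 116 to 126 RPKM with aldosterone and at 169 or more in every other library, whereas *Acta2*, *Cnn1* and *Actg2* separate by sample number within every treatment.

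Aldosterone lowered *Tpm1* and *Lrrc15*, and lowered 5 further contractile genes when libraries of the same sample number were compared. Tested with limma with treatment as the only factor, 2 of the 10 members were lower past an adjusted p of 0.05 and 0 were higher, where 4.74% of the 27319 genes tested were lower and 5.68% higher. Only *Lrrc15* also passed an absolute log2 fold change of 1, which 2.06% of the genes did. With the sample number as a block, 7 of 10 were lower, against 8.02% of all genes, and 0 were higher, against 8.68%. Within each sample number, both aldosterone libraries were below both vehicle libraries for 8 of the 10 members (all but *Lmod1* and *Fap*), which held for 11.2% of all genes. The median log2 fold change was -0.28 over the members and -0.01 over all genes. All 10 members had a mean of at least 10 normalized counts, as 15245 of the 27319 genes did. The shares over all genes are therefore not those of genes at the members' levels.

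*Tpm1* had 19519, 19460, 17920 and 18111 normalized counts in A1_1, A1_2, A2_1 and A2_2. In V1_1, V1_2, V2_1 and V2_2 it had 27286, 26448, 26268 and 26374. The groups were far apart, and the libraries of the sample numbers lay close together within each. *Tpm1* fell by 29.5%, with a log2 fold change of -0.50 ± 0.056 (SE, adjusted p = 1.0e-05 by limma), and it stayed called when any single library was left out.

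*Lrrc15* had 60.7, 27.9, 33.1 and 30.6 normalized counts in the aldosterone libraries, in the same order. The vehicle libraries had 82.2, 85.9, 76.9 and 67.6. The groups did not overlap, although A1_1 stood well above the other aldosterone libraries and near the lowest vehicle library. *Lrrc15* fell by 52.7%, with a log2 fold change of -1.08 ± 0.237 (95% interval -1.58 to -0.58, adjusted p = 0.00618 by limma) or an adjusted p of 0.000372 with the block. The fold change without A1_1 was -1.32. At these few reads the call was not stable to the loss of a library. Without A1_2, A2_1, A2_2, V1_1, V1_2 or V2_1 the adjusted p from limma was between 0.0587 and 0.0741, with a fold change of -0.96 to -1.09. With the block, the call held in 5 of 8 such fits (adjusted p from limma 0.00174 to 0.0556). The size passed a log2 of 1 only narrowly, and it was -0.92 with a pseudocount of 10.

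*Acta2* had 60654, 62578, 41177 and 41252 normalized counts with aldosterone. With vehicle it had 75817, 73217, 55014 and 52587. The aldosterone libraries of sample number 1 thus lay above the vehicle libraries of sample number 2, while within each number aldosterone was lower. The log2 fold change was -0.33, with an SE of 0.146 without the block (adjusted p = 0.204 by limma) and of 0.040 with it (adjusted p = 1.8e-07). In sample number 1 it was -0.27 and in sample number 2 it was -0.38.

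*Cnn1* had the largest difference among the contractile genes, with 3388, 3359, 1933 and 1826 normalized counts in the aldosterone libraries. The vehicle libraries had 4767, 4724, 3007 and 2804. The same pattern held, with a wide gap between sample numbers and aldosterone below vehicle inside each. Its log2 fold change was -0.56 ± 0.203 (SE, adjusted p = 0.103 by limma), and ± 0.045 with the block (adjusted p = 2.3e-11). *Myl9* had 7306, 7472, 5365 and 5528 normalized counts with aldosterone and 9117, 8728, 7099 and 6659 with vehicle. The log2 fold change of -0.30 had an adjusted p of 0.119 from limma, and of 5.6e-07 with the block.

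*Tpm2* had 9629, 9995, 7241 and 7257 normalized counts with aldosterone and 10988, 10568, 8618 and 8422 with vehicle. The difference was -0.18 on the log2 scale (adjusted p = 0.39 by limma), or an adjusted p of 0.000658 with the block. *Actg2* had 3033, 2968, 1560 and 1618 with aldosterone and 3259, 3327, 1744 and 1772 with vehicle. Its log2 fold change of -0.14 was the smallest of those called (adjusted p = 0.795 by limma and 0.0221 with the block). For *Acta2*, *Cnn1*, *Myl9*, *Tpm1*, *Tpm2* and *Actg2*, the block kept an adjusted p of at most 0.05 in 8 of 8 fits that left out a library. The adjusted p from limma was much larger in these fits, at 0.00151 to 0.00559 for *Acta2* and 0.00014 to 0.000993 for *Cnn1*. With the block and the 2 libraries of a sample number averaged, *Actg2* was no longer called (adjusted p = 0.0512 by limma).

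*Tagln* was not called in either fit, at 134 to 212 normalized counts with aldosterone and 174 to 236 with vehicle, a log2 fold change of -0.25 (adjusted p = 0.384, and 0.134 with the block, by limma). *Lmod1* lay at 1043 to 1688 normalized counts with aldosterone and 1136 to 1407 with vehicle. The difference was 0.07 on the log2 scale, with a 95% interval from -0.19 to 0.32. It was 0.26 in sample number 1 and -0.13 in sample number 2, but this difference was not called over all genes (interaction, adjusted p = 0.895 by limma). *Fap* lay at 26.0 to 40.8 normalized counts with aldosterone and 20.5 to 42.9 with vehicle. Its interval, from -0.53 to 0.71, left room for a change of either sign.

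**Figure D2:**
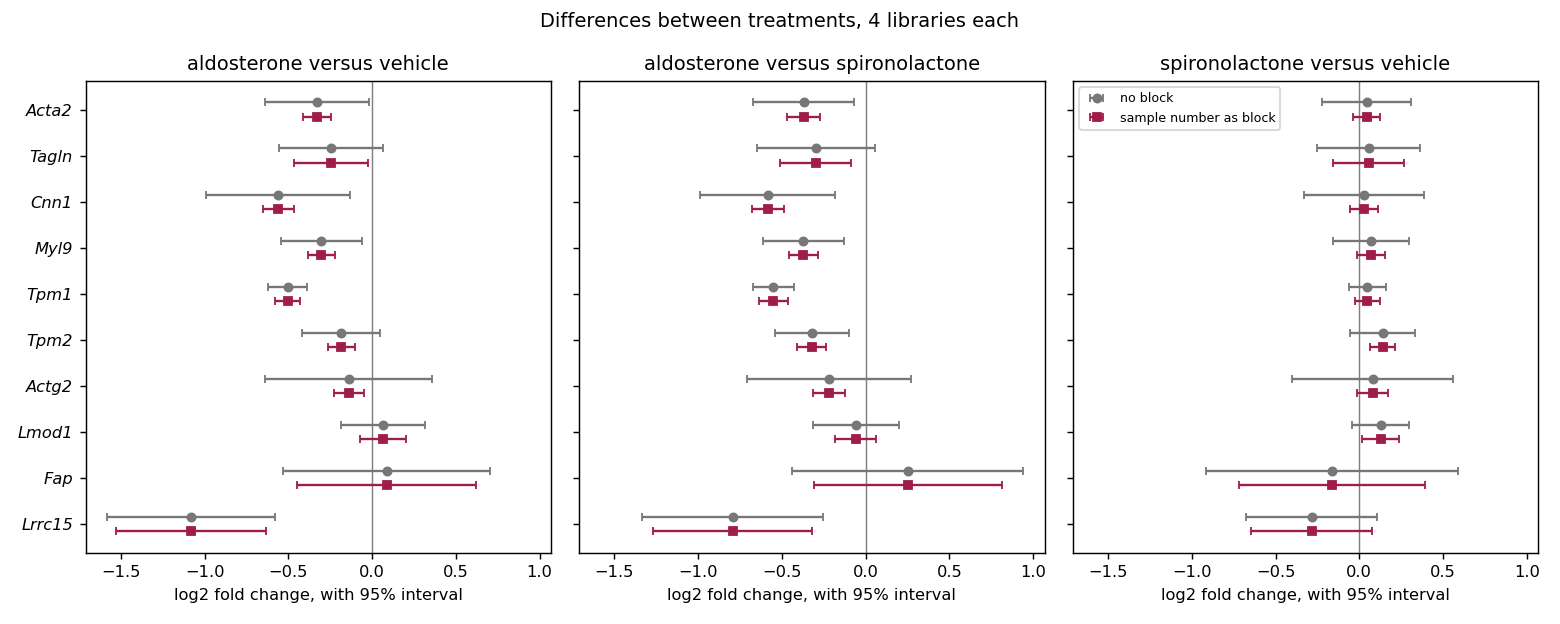
Log2 fold change of each member in the 3 comparisons (4 libraries per treatment), with 95% intervals from limma without a block (grey circles) and with the sample number as a block (red squares). The estimates are the same in both fits, the intervals of the contractile genes shrink with the block, and *Tpm1* is apart from 0 in both fits against vehicle (-0.50) and against spironolactone (-0.55).

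Some marker sums moved with the aldosterone libraries too. The smooth muscle and pericyte sum ranged from 344 to 528 CPM, against 451 to 604 with vehicle. Of its 9 genes, 0 were called without the block and 3 were lower with it (*Cspg4*, *Mcam* and *Notch3*). Over all genes, 4.74% were lower and 5.68% higher (8.02% and 8.68% with the block). The fibroblast sum was at 30931 to 35003 CPM against 38323 to 42799, and at 34553 to 40183 in the spironolactone libraries. Of its 7 genes, *Pdgfra* was higher in both fits, by 0.91 on the log2 scale, and 5 were lower with the block alone. Between spironolactone and vehicle, 0 of the 7 were called without the block and 2 were lower with it. The skeletal muscle sum was at 7.41 to 15.2 CPM against 20.9 to 29.0, mostly reads of *Acta1*, and the tendon sum was at 129.9 to 145 against 186 to 209. Of the 3 tendon genes, 2 were lower without the block and 3 with it. The endothelial sum, mostly reads of *Tek*, was at 28.3 to 30.5 against 20.3 to 22.5. Its only called gene without the block was *Kdr*, a VEGF receptor, at 168 ± 79.6 normalized counts against 45.1 ± 23.1 (log2 fold change 1.88 ± 0.354, adjusted p = 0.00183 by limma), while *Tek* was at 0.23 (adjusted p = 0.0694 by limma, 0.0147 with the block). The endothelial markers *Pecam1*, *Cdh5* and *Emcn* had at most 12, 25 and 9 reads and were not called in either fit. *Pecam1* went the other way, at 2.85 ± 0.85 normalized counts against 6.57 ± 2.45. The Schwann sum was at 12.7 to 19.1 against 10.2 to 13.9 and the immune sum at 10.3 to 11.6 against 10.8 to 13.2. Of the Schwann genes only *S100b* was called, higher by 0.50 (adjusted p = 0.0141 by limma), and 0 immune genes were. The part of these marker sums in the differences of the members was not tested.

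Most contractile genes differed between the sample numbers by at least as much as between treatments. This comparison, chosen after the data were seen, set the 6 libraries of number 2 against the 6 of number 1 on log2 CPM with treatment as a covariate. It called 8 of the 10 members, where 22.5% of 15706 genes were called, and 0 members at an absolute log2 fold change of 1, where 0.885% were. *Actg2* was 1.88-fold higher in sample number 1 (log2 difference, number 2 minus 1, -0.91 ± 0.034, SE), *Cnn1* 1.66-fold and *Acta2* 1.41-fold. *Tagln*, *Myl9*, *Tpm2* and *Lmod1* were 1.33-, 1.32-, 1.28- and 1.24-fold higher in sample number 1. *Fap* went the other way and was 1.71-fold higher in sample number 2 (0.78 ± 0.182). The highest adjusted p from limma among these 8 genes was 0.00316.

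*Tpm1* and *Lrrc15* were not called between the sample numbers, with log2 differences of -0.05 ± 0.027 (adjusted p = 0.182 by limma) and -0.25 ± 0.167 (adjusted p = 0.315). They were also the members called between aldosterone and vehicle without the block. That fit counts a difference between sample numbers as spread, so this match is partly built in. *Actg2* and *Tpm1* stood at opposite ends: the log2 difference between sample numbers was -0.91 and -0.05, and that between aldosterone and vehicle -0.14 and -0.50. The smooth muscle marker *Myh11*, the smooth muscle myosin heavy chain, was lower in sample number 2 by 1.01 on the log2 scale, and *Mcam* by 0.66. The smooth muscle and pericyte sum was at 598 to 604 CPM in the vehicle libraries of number 1 and 451 to 493 in those of number 2. Its part in the difference of the members was not tested. Over the 3 comparisons, the effect of treatment did not differ between the sample numbers at an adjusted p of at most 0.05 for any member.

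**Figure D3:**
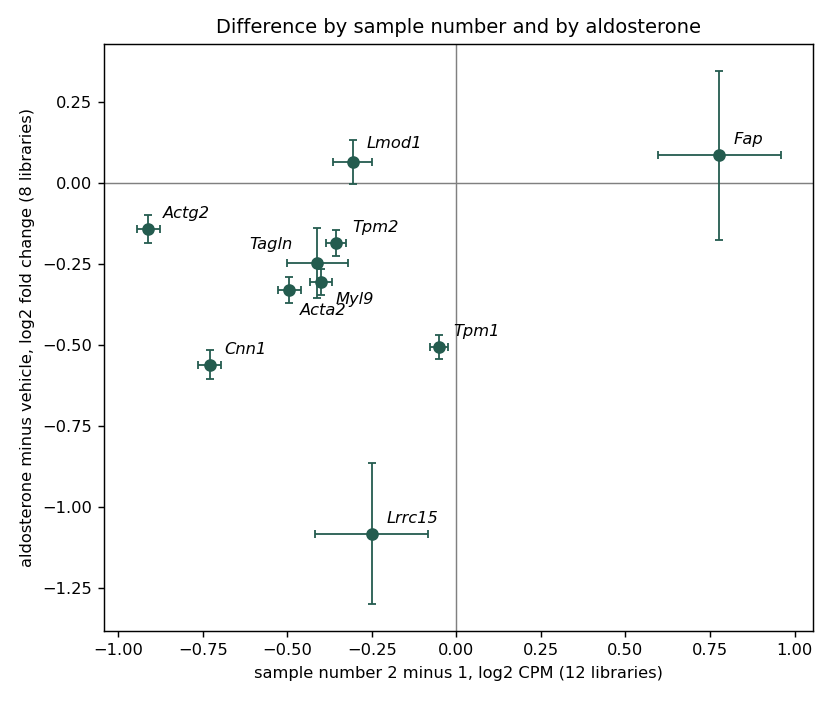
Difference of each member between sample numbers (x axis, number 2 minus 1, log2 CPM, 12 libraries) and between aldosterone and vehicle (y axis, log2 fold change from the blocked fit, 8 libraries), with bars of 1 SE. *Actg2* lies far left and near 0 on the y axis, *Tpm1* and *Lrrc15* lie low near the middle of the x axis, and *Fap* lies alone at the right.

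Against spironolactone, which shares the same aldosterone libraries with the comparison above, the count of called members depended on the block. Without it 1 of 10 members was lower (*Tpm1*) and 0 were higher, where 3.96% and 4.93% of 27631 genes were. A log2 fold change of 1 was reached by 0 members and by 1.9% of all genes as a call. With the block, 8 of 10 were lower, against 6.8% of all genes, and 5 were when A2_1 was left out. Both aldosterone libraries lay below both spironolactone libraries in each sample number for 6 members, namely *Acta2*, *Cnn1*, *Myl9*, *Tpm1*, *Tpm2* and *Actg2*, and for 10% of all genes. Here too all 10 members had a mean of at least 10 normalized counts, which 15300 of the 27631 genes did.

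*Tpm1* had 28030, 28896, 28021 and 27992 normalized counts in S1_1, S1_2, S2_1 and S2_2, and 18415 to 20113 in the aldosterone libraries of the same table. The groups were far apart, with a log2 fold change of -0.55 ± 0.058 (SE, adjusted p = 3.5e-06 by limma). *Acta2* had 73541, 82810, 57189 and 57910 normalized counts with spironolactone and 42315 to 64312 with aldosterone, and *Cnn1* had 4837, 4873, 3085 and 3125 against 1876 to 3491. Both groups overlapped across sample numbers, with log2 fold changes of -0.37 and -0.58 (adjusted p 0.143 and 0.0717 from limma, 2.0e-07 and 3.9e-12 with the block). The values for *Myl9*, *Tpm2* and *Actg2* were -0.37, -0.32 and -0.22, called with the block alone. *Tagln*, at -0.30, passed the block narrowly (adjusted p = 0.0493 by limma) and in 0 of 8 fits without a library.

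*Lrrc15* had 83.6, 58.5, 73.4 and 51.0 normalized counts with spironolactone. With aldosterone it had 62.6, 28.7, 34.1 and 31.5 in this table, so that A1_1 overlapped the spironolactone range. The log2 fold change was -0.79 ± 0.257 (SE, adjusted p = 0.0678 by limma, and 0.0152 with the block), and with the block it was called in 1 of 8 fits without a library. *Lmod1*, at -0.06, and *Fap*, at 0.25, were not called.

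Spironolactone against vehicle gave 0 called members of 10 in limma, with or without the block, and 0 in edgeR and DESeq2. Over all 27598 genes limma called 0% lower and 0% at the log2 fold change of 1, or 0.351% in either direction with the block, and 1251 genes had an unadjusted p under 0.05. No member reached an unadjusted p of 0.05 without the block, whereas *Tpm2* and *Lmod1* did with it. *Tpm1* was slightly higher in every spironolactone library, at 27430 to 28328 normalized counts against 26450 to 27391, a log2 fold change of 0.05 with a 95% interval from -0.06 to 0.16 (adjusted p = 0.934 by limma). *Tpm2* was at 0.14, with a 95% interval from 0.06 to 0.22 with the block (adjusted p = 0.117 by limma). For *Acta2* the 95% interval with the block was -0.04 to 0.13, for *Cnn1* -0.06 to 0.11 and for *Myl9* -0.01 to 0.15, so that falls of the size seen with aldosterone lay outside them. For *Lrrc15*, at -0.28, it was -0.65 to 0.08, and for *Fap*, at -0.16, it was -0.72 to 0.39.

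The members varied together to different degrees across the 12 libraries, which share treatments and sample numbers. Among 15706 genes, those with the highest Pearson's r of log2 CPM with *Acta2* included *Myl9* (0.991), *Cnn1* (0.99), the tropomyosin *Tpm4* (0.983) and *Igfbp2* (0.981), which binds insulin-like growth factors. After the mean of each treatment was removed, r with *Acta2* was 0.994 for *Myl9*, 0.996 for *Tpm2* and 0.988 for *Cnn1*, and -0.84 for *Fap*. When the mean of each sample number within the treatment was removed as well, *Myl9*, *Tpm2*, *Tpm1* and *Actg2* still followed *Acta2* (0.932, 0.875, 0.734 and 0.719). *Cnn1* did so less (0.336) and *Tagln* hardly (0.110). The 2 libraries of a sample number and treatment then mirror each other, so these r values rest on fewer independent values than the 12 libraries. *Lrrc15* had an r of 0.351 with *Acta2* after removal of the treatment means, and of -0.530 after removal of the sample number means as well. The genes most like *Lrrc15* over the 12 libraries were *Tcaf1* (0.959), *Hdac4* (0.939), *Ppp2r3a* (0.938), *Ephb3* (0.931) and *Foxp4* (0.927).

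Other genes of the contractile and activation programs moved in both directions between aldosterone and vehicle. Of 24 further smooth muscle contractile genes in the table, 2 were higher and 3 lower (3 and 7 with the block), with a median log2 fold change of -0.11. Over all 27319 genes, 5.68% were higher and 4.74% lower (8.68% and 8.02% with the block). The 3 lower genes were *Acta1*, *Tagln2* and *Pdlim7*. *Acta1*, the skeletal muscle actin, fell from 539 ± 103 to 236 ± 96.0 normalized counts (log2 fold change -1.26 ± 0.220, adjusted p = 0.000994 by limma). *Cryab*, a small heat shock protein, rose from 4137 ± 302 to 7268 ± 354 (0.81 ± 0.061), and *Csrp2*, a LIM protein of smooth muscle, rose by 0.60. The *Csrp2* call was lost in all 8 fits that left out a library (adjusted p 0.0585 to 0.137 from limma), and that of *Acta1* without A2_1, A2_2, V1_1, V1_2 or V2_2 (up to 0.0781). *Myh11* (-0.01), *Mylk*, the myosin light chain kinase (0.16), and *Des*, desmin (-0.39), were not called in either fit. The sign for *Myh11* turned with the scaling of the libraries.

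Of 17 non-muscle actomyosin and focal adhesion genes, 1 was lower and 0 were higher (5 and 4 with the block). The shares over all genes were 4.74% and 5.68% (8.02% and 8.68% with the block). The gene called lower without the block was *Myh10*, a non-muscle myosin heavy chain, at -0.28 ± 0.058. *Actb*, the cytoplasmic actin, was at -0.04 and was not called in either fit.

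Of 16 regulators of contractile genes, 5 were higher and 2 lower (8 and 3 with the block). The shares over all genes were 5.68% and 4.74% (8.68% and 8.02% with the block). *Myocd*, the smooth muscle coactivator of SRF, rose from 71.5 ± 30.4 to 186 ± 53.2 normalized counts (1.43 ± 0.265, adjusted p = 0.00166 by limma). *Tead4*, a partner of the Hippo pathway coactivators, rose from 218 ± 24.9 to 526 ± 32.9 (1.27 ± 0.095), and the kinase *Rock2* rose by 0.56. *Srf* itself fell by 0.26 on the log2 scale (adjusted p = 0.0167 by limma), *Mrtfa* rose by 0.29 (adjusted p = 0.0183) and *Mrtfb*, at 0.04, was not called. Leaving out 1 library kept the call in 4 of 8 fits for *Myocd* (adjusted p up to 0.0824, lost without A1_1, A1_2, V2_1 or V2_2), in 3 of 8 for *Srf* (up to 0.105, lost without A1_1, A1_2, A2_1, V1_1 or V2_1) and in 1 of 8, that without A2_2, for *Mrtfa* (up to 0.155).

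Of 34 genes of activated fibroblasts and TGF-β targets, 7 were higher and 10 lower (12 and 17 with the block). The shares over all genes were 5.68% and 4.74% (8.68% and 8.02% with the block). *Postn*, the matrix protein periostin, rose the most, from 16786 ± 2238 to 65861 ± 8121 normalized counts (1.97 ± 0.097, adjusted p = 6.8e-10 by limma). *Ccn2*, a matricellular TGF-β target, rose by 0.82 on the log2 scale. *Ccn4*, a relative of it, fell by 0.93, and *Dpp4*, a membrane peptidase closely related to *Fap*, fell from 48.0 ± 12.6 to 19.2 ± 8.86 normalized counts (-1.35 ± 0.332, adjusted p = 0.0133 by limma). The *Dpp4* call held in 1 of 8 fits that left out a library, that without A2_1 (adjusted p 0.0347 to 0.124 from limma). *Tgfb1*, at -0.20, was called with the block only (adjusted p = 0.0373). Of 9 genes in the table that were listed by name beside *Lrrc15*, *Lrrn4cl* rose by 0.97 and *Lrrc17* fell by 0.45, and 7 were not called. Whether each of them carries leucine-rich repeats was not examined. With the block 2 were higher and 1 lower, *Lingo1* (0.32, adjusted p = 0.00167 by limma) being the one added.

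**Figure D4:**
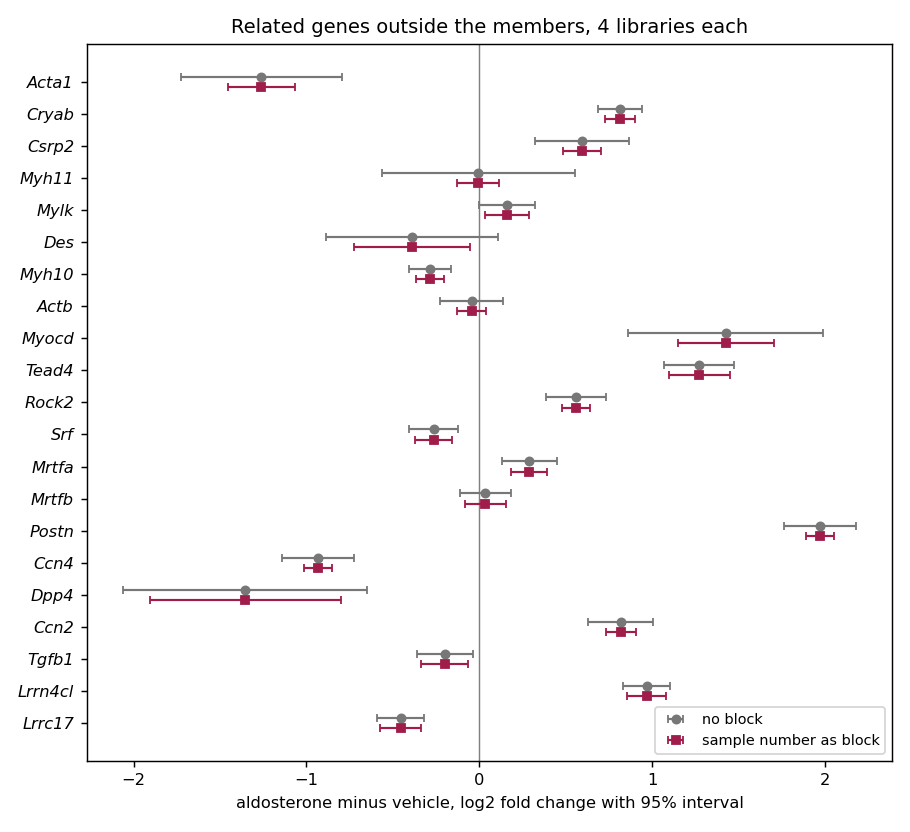
Log2 fold change between aldosterone and vehicle (4 libraries each) for 21 related genes, with 95% intervals from limma without (grey circles) and with (red squares) the sample number as a block. *Postn* (1.97), *Myocd* (1.43) and *Tead4* (1.27) lie to the right of 0, *Acta1* (-1.26) and *Dpp4* (-1.35) lie to the left, and *Myh11*, *Actb* and *Mrtfb* lie near 0.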

How the data were processed

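Gene expression was measured by poly(A) RNA sequencing in 12 libraries, 4 per treatment. Per the submitters' processing notes, reads were aligned with HISAT2 2.0.5 to mm39 and counted with featureCounts 1.5.0-p3, although the study's methods name mm9. Use of the strand in counting is not given in the sources used here. The authors deposited 3 tables, 1 per pair of treatments, with a signal value per gene and library, which is a gene count divided by the library's size factor (normalized count). Their own fold changes and p-values in these tables were not used. All values (100%) were whole multiples of 1 step per library within 0.001 read, which gave the reads, and for 2 libraries the reads came from their other table. Only 39 of 20676 genes had the gene start of NCBIM37, so that genome was not used.

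Normalized counts were tested with limma (version 3.58.1, R 4.3.3) with a trend on log2(normalized count + 1) over each whole table, with Benjamini-Hochberg adjustment and treatment as the only factor. Each gene's variance was drawn toward the trend over all genes. The p-values, with or without the block, therefore rest on that trend as well as on the gene's own libraries. The threshold was an adjusted p of 0.05, or this together with an absolute log2 fold change of 1. Fold changes on this scale understate those of low genes. Same-numbered libraries of different treatments deviated together (r from 0.12 to 0.277 over 24 pairs), so fits with a replicate block on the sample number stand beside the others. Libraries of a group were no duplicates (chi-square per degree of freedom of at least 3.96). RPKM used the recovered reads, TMM factors and the deposited gene lengths. Likeness and sample number were examined on TMM-scaled log2 CPM (edgeR 4.0.16, prior count 2, filterByExpr). DESeq2 (version 1.42.0) and edgeR were alternatives on recovered reads. The tests were checked on simulated data with independent libraries and no difference between sample numbers. That check therefore does not cover the structure by sample number seen here.

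The members and lists were chosen with earlier results of these data known. Named genes are the members and, of each list, the 3 called genes of largest fold change between aldosterone and vehicle whose mean reached 10 normalized counts, plus *Srf*, *Mrtfa*, *Mrtfb*, *Myocd*, *Myh11*, *Mylk*, *Des*, *Ccn2*, *Postn*, *Tgfb1*, *Dpp4*, *Actb*, the steroid receptor targets *Fkbp5*, *Tsc22d3* and *Per1*, and the 5 genes most like *Acta2* and *Lrrc15*, of which 1 is not reported here. *Tagln2*, *Pdlim7*, *Lingo1* and markers named singly were chosen after their values were seen. With aldosterone against vehicle, *Tsc22d3* and *Per1* rose by 2.69 and 1.83 on the log2 scale. Protein data and adult or dystrophic fibroblasts were not analysed here.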

Additional observations from a re-analysis of the deposited data

Results flagged for a closer look

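Of 30 groups of 4 libraries, a member in a treatment, 2 had a library far from the other 3, and chance flags about 1 group in 20. *Lrrc15* in the aldosterone library A1_1 had 60.7 normalized counts, while the other 3 had 27.9 to 33.1. *Tpm1* in the spironolactone library S1_2 had 28896 normalized counts, while the other 3 had 27992 to 28030, a small gap against its difference from the aldosterone libraries.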

How the results depend on the processing

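The number of members called between aldosterone and vehicle was 2, all lower. It was 7 with a replicate block on the sample number, 7 with both numbers, 1 with the 2 libraries of a sample number averaged, 0 in sample number 1 alone, 1 in sample number 2 alone and, chosen after seeing the data, 6 for averaged libraries with the block, the call lost being *Actg2*. Leaving out 1 library gave 1 to 2. At a log2 fold change of 1 the count of 1 became 0 with a pseudocount of 10, with averaged libraries and in either sample number alone, and was 0 to 1 without a library. Against spironolactone the count of 1 became 3 in DESeq2, 8 with the block on the sample number, 2 with one on the replicate number, 7 with both, 0 and 4 in sample numbers 1 and 2, 8 for averaged libraries with the block, and 1 to 2 without a library (0 to 1 at a log2 fold change of 1). Leaving out a library in the blocked fit gave 5 to 8. Between spironolactone and vehicle 0 became 1 (*Tpm2*) for averaged libraries with the block. The cause of these changes was not tested, except that sample numbers alone and averaged libraries leave fewer libraries.

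Signs turned only for differences that were not called in the fit without a block. Between aldosterone and vehicle, in sample number 2 alone, the log2 fold change was -0.13 for *Lmod1*, -0.21 for *Fap* and -0.014 for *Mrtfb*, and *Myh11* was at 0.011 in DESeq2, 0.0017 with TMM scaling and 0.048 in sample number 1. Between aldosterone and spironolactone, *Lmod1* was at 0.080 in sample number 1 and *Fap* at -0.18 in sample number 2. Between spironolactone and vehicle, *Tagln* was at -0.10 in sample number 2 and *Cnn1* at -0.0051 in sample number 1. Without 1 library, values between aldosterone and vehicle ranged from -0.30 to 0.021 for *Actg2*, -0.050 to 0.18 for *Lmod1*, -0.10 to 0.25 for *Fap*, -0.0049 to 0.089 for *Mrtfb*, -0.21 to 0.20 for *Myh11* and -0.093 to 0.016 for *Actb*. Between aldosterone and spironolactone they ranged from -0.019 to 0.47 for *Fap* and -0.18 to 0.057 for *Lmod1*. Between spironolactone and vehicle they ranged from -0.058 to 0.13 for *Acta2*, -0.10 to 0.24 for *Actg2*, -0.11 to 0.15 for *Cnn1*, -0.39 to 0.11 for *Fap*, -0.025 to 0.14 for *Myl9* and -0.050 to 0.20 for *Tagln*. At 19 to 98 reads per library, *Fap* and *Lrrc15* allow no fine comparison.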
